A study of Mus musculus with 9 samples.

Results

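The genes described here are 40 genes of the lysosome and of autophagy in mouse embryonic fibroblasts with and without Oga, the gene for the enzyme that removes O-GlcNAc from proteins. They were taken as all probe sets whose platform annotation gives 1 of 40 fixed symbols, which yielded 97 of the 45101 probe sets and 40 of the 18193 genes with a symbol of their own. Of the 97 probe sets, 83 lay above the low-value cut of 6.22, and all 40 genes were among the 12962 genes tested. The rule uses no measured value, but the 40 genes were chosen with earlier results of these data known. For each gene 1 probe set was used, the one with the highest mean over the 9 arrays. The group held 29 lysosomal genes (8 proteases, 8 glycosidases, 4 sulfatases, 5 lipid enzymes or lumenal lipid proteins and 4 membrane proteins), the regulator Tfeb and 10 autophagy genes.

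The lines compared by Affymetrix array were wild type (WT), heterozygous (Het) and knockout (KO) for Oga. Males carrying 1 floxed Oga allele on a C57B1/6 background had been crossed with B6129-Tgn(MMTV-Cre)1Mam females, whose Cre recombinase is driven by the mouse mammary tumour virus promoter. Heterozygotes from that cross were intercrossed, and fibroblasts were prepared from their E12.5 embryos and grown in DMEM, so all 3 genotypes come from the same cross with the transgenic strain. The labels do not say whether the embryos or lines still carried the transgene. Each genotype was represented by 1 female line, hybridised in 3 technical replicates. Every p-value below therefore measures the spread between arrays of a line, and a difference between genotypes cannot be told apart from a difference between 3 individual lines.

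Lysosomes break down proteins, glycans and lipids with acid hydrolases that are made in the endoplasmic reticulum and mostly delivered through the mannose 6-phosphate pathway, while membrane proteins such as the LAMPs line the organelle. In autophagy, cytoplasm is enclosed by a double membrane built by the ULK1 and beclin complexes and by conjugation of Atg8 proteins to lipid, and the vesicle then fuses with a lysosome. The transcription factor TFEB and its relatives act on many of these genes through an E-box element in their promoters. Macrophages are rich in lysosomes, and their RNA is therefore a known source of lysosomal transcripts in mixed cultures.

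The values are as deposited, taken as log2 from their range, and differences are on that scale. The Oga probe set with the highest mean read 11.89 to 11.95 on the WT arrays, 11.16 on each Het array and 6.03 to 6.08 on the KO arrays, in the order of the labels. Correlations between arrays over all probe sets ran from 0.997 to 0.999 within a line and from 0.989 to 0.996 between lines, and array medians from 6.87 to 6.95. The fibroblast collagens Col1a1 and Col1a2 had means of at least 14.87 in every line. Of 12 fibroblast markers, 7 were lower and 1 higher in KO than in WT at an adjusted p below 0.05 by limma (median -0.17), among them Pdgfra, which fell by 2.55, and Dcn, lower by 0.93. For these and the marker counts that follow, 31.5% of all genes tested were lower and 21.6% higher in KO. By at least 2-fold the shares were 2.58% and 0.988%, and in Het 13.4% of all genes were higher. Macrophage RNA was present in the cultures: the summed linear level of 20 macrophage markers was 64499 to 66147 on the WT arrays, 51235 to 53852 on the Het arrays and 18262 to 19197 on the KO arrays. All 20 of these markers were lower in KO than in WT, and 19 fell at least 2-fold. Skeletal muscle markers moved the other way: all 8 measured of 9 were higher in KO than in WT (median 1.32, 6 of them at least 2-fold) and 7 were higher in Het, with summed levels of 1903 to 1951 in WT, 2833 to 3125 in Het and 4713 to 4805 in KO, and Myod1 below the low-value cut. Of 4 epithelial markers measured of 6, 3 were higher in KO, Krt18 (1.68) and Krt19 (1.26) at least 2-fold. Their summed levels were 795 to 813, 855 to 886 and 1385 to 1457, with Cdh1 and Esrp1 below the cut. Fewer cells of a type and less RNA per cell cannot be told apart in such bulk samples.

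Promoter windows from RefSeq (GRCm38.p6, 250 bases before to 50 after each gene's start) were found for 33 of the 40 genes. The E-box CACGTG, its own reverse complement, lay in 13 of the 33 (39.4%), against 8.09% of 27025 promoters in the same table. The longer form TCACGTG or its reverse complement CACGTGA, which contains the E-box, lay in 11 of 33 (33.3%) against 4.29% of all promoters. Among them, 10 of the 24 lysosomal promoters and 1 of the 8 autophagy promoters had a match. The following stretches, written 5′ to 3′ along each gene, are shown because they hold that longer form, in capitals, in genes whose values differ widely below: on the probe sets used, Naglu, Gaa and Sgsh were lower in KO, Gla was lowest in Het, and Glb1 and Atg7 passed no test.
Naglu, chr11:101070003-101070043, plus strand: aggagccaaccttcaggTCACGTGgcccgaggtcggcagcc
Gaa, chr11:119267805-119267845, plus strand: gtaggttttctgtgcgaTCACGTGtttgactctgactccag
Sgsh, chr11:119355516-119355556, minus strand: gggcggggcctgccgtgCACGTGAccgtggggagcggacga
Gla, chrX:134601176-134601216, minus strand: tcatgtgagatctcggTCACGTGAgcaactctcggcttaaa
Glb1, chr9:114401012-114401052, plus strand: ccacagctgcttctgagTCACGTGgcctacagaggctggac
Mcoln1, chr8:3500457-3500497, plus strand: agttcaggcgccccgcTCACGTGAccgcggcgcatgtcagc
Ctsd, chr7:142387902-142387942, minus strand: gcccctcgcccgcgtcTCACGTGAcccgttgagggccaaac
Atg7, chr6:114670946-114670986, plus strand: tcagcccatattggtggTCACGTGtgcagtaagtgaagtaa
In Gla, Mcoln1 and Ctsd the capitals extend to the palindrome TCACGTGA, found also in Ctsa and so in 4 of the 33 promoters (12.1%), against 1.12% of all. A match of letters is a description of the window and not evidence of a bound site.

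Lysosomal hydrolase RNAs were lower in the KO line than in WT, while most autophagy RNAs did not pass the test and a few were higher. Of the 40 genes, 25 were lower and 4 higher in KO at an adjusted p below 0.05, and 11 did not pass. Over all genes tested, 53.1% passed, 31.5% lower and 21.6% higher. "Lower" and "higher" are used below for that threshold alone, and "fell" and "rose" where the difference was also at least 2-fold. Of the 40, only Naglu fell on the probe sets used, and none rose by limma (0 also at an unadjusted p below 0.05). Over all genes tested, 2.58% fell and 0.988% rose. At a 1.5-fold minimum Naglu and Gaa were lower, where 6.09% of all genes were lower and 3.48% higher. The median difference was -0.23 over the 40 genes, -0.28 over the 29 lysosomal genes and -0.03 over all genes tested. By group, 24 of the 29 lysosomal genes were lower and 1, Ctsh, was higher. Of the 10 autophagy genes 3 were higher and none lower by limma (0 also at an unadjusted p below 0.05), with a median of -0.0055. On other settings of the analysis 1 or 2 autophagy genes were lower. In the same line the macrophage-marker sum was lowest and the skeletal muscle and epithelial sums highest, and their part in these differences was not tested.

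**Figure D1:**
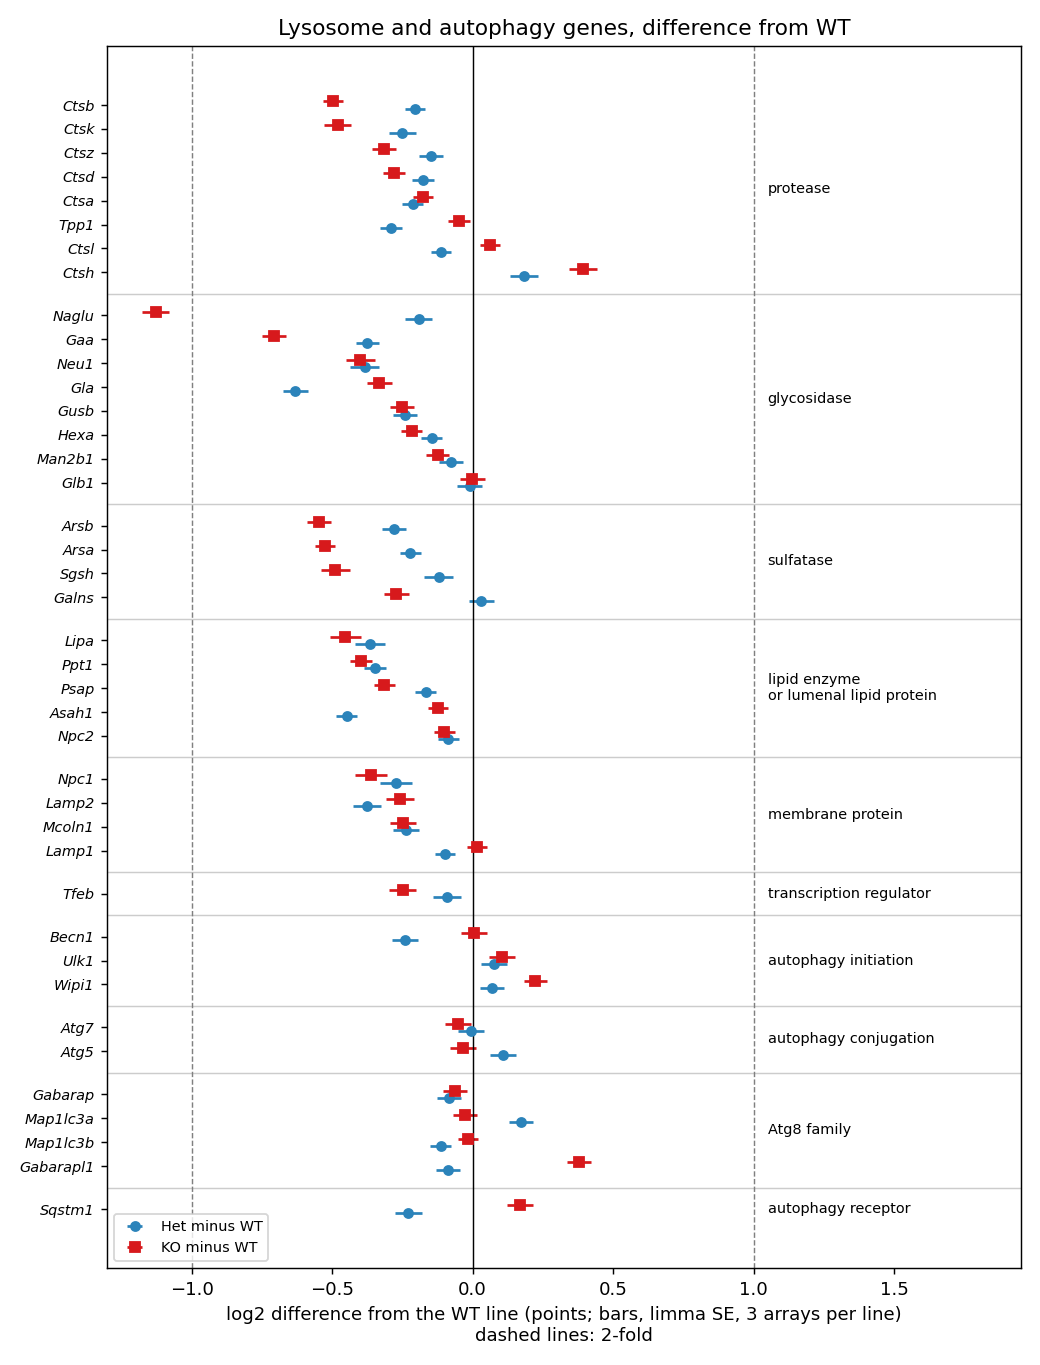
The difference from WT on the log2 scale is plotted for each of the 40 genes, grouped by role, for the KO and Het lines (3 arrays a line), with bars for the standard error of the difference. Most enzyme genes lie left of 0 in both lines, with Naglu at -1.13 in KO, whereas Gabarapl1 lies at 0.38.

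Among the proteases, 5 of 8 were lower in KO than in WT, 1 was higher and 2, Ctsl and Tpp1, did not pass, with a median of -0.23. Ctsb, the cysteine protease cathepsin B, had the largest difference. It read 14.11, 14.06 and 14.10 on the WT arrays, 13.86, 13.88 and 13.90 on the Het arrays and 13.58, 13.62 and 13.58 on the KO arrays. The 3 lines were thus ordered WT, Het, KO with no overlap. Other Ctsb probe sets gave KO minus WT differences of -0.58, -1.12, -1.20 and -0.37. On the probe set used, KO was 1.41-fold lower than WT (-0.50, SE 0.036, adjusted p = 5.5e-07, limma, n = 3 arrays a line). Ctsk, a collagen-degrading cathepsin typical of osteoclasts, was lower by a like amount: 9.81, 9.76 and 9.81 in WT, 9.46, 9.54 and 9.64 in Het and 9.29, 9.30 and 9.35 in KO. Its arrays did not overlap between lines either (KO minus WT -0.48, adjusted p = 9.4e-06, limma). Of 6 osteoclast markers, Calcr, Ocstamp and Oscar lay below the low-value cut. Of the other 3, Itgb3 was higher in KO (0.48) and in Het (0.35), while Acp5 (-0.12) and Dcstamp (0.13) did not pass between KO and WT. Their summed level was 561 to 587 in WT, 648 to 691 in Het and 667 to 732 in KO. Itgb3, the brightest (means 8.42, 8.76 and 8.90 in WT, Het and KO), weighs most in that sum. Acp5 (7.33, 7.16 and 7.21) was dimmer, and Dcstamp (6.18, 6.41 and 6.31) lay close to the low-value cut. Ctsd, an aspartic protease, Ctsz, a carboxypeptidase, and Ctsa, which protects neuraminidase and beta-galactosidase, were lower by 0.28, 0.31 and 0.18. For Ctsa the mean over its probe sets did not pass (-0.08).

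Ctsh, an aminopeptidase of the cathepsin family, went the other way. It read 10.86, 10.98 and 10.89 in WT, 11.01, 11.11 and 11.17 in Het and 11.33, 11.32 and 11.26 in KO. All KO arrays lay above all Het arrays, and these above all WT arrays. KO exceeded WT 1.31-fold (0.39, SE 0.050, adjusted p = 5.1e-05, limma). A dimmer probe set gave 0.33 for KO and 0.29 for Het against WT, both higher. Its KO and Het arrays overlapped, and KO minus Het did not pass there (0.04). Ctsl, the endoprotease cathepsin L, differed by 0.06 between KO and WT, with an adjusted p of 0.16 by limma.

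On the probe sets used, the glycosidases held the only gene past 2-fold. Of the 8, 7 were lower in KO and 1, Glb1, did not pass, with a median of -0.29. Naglu, which removes N-acetylglucosamine from heparan sulfate, read 10.33, 10.33 and 10.25 on the WT arrays, 10.05, 10.12 and 10.16 on the Het arrays and 9.25, 9.15 and 9.12 on the KO arrays. The KO arrays stood well below both other lines, whose own ranges were apart but close. Naglu fell 2.19-fold in KO against WT (-1.13, SE 0.048, adjusted p = 7.5e-09, limma, n = 3). Under every alternative tried, this difference stayed between -1.17 and -1.10.

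Gaa, the acid alpha-glucosidase that degrades lysosomal glycogen, came next. Its arrays read 11.78, 11.88 and 11.85 in WT, 11.41, 11.47 and 11.51 in Het and 11.11, 11.16 and 11.12 in KO. The Het arrays lay between those of the other lines without overlap. The KO difference was 1.63-fold (-0.71, SE 0.042, adjusted p = 1.1e-07, limma), and a second Gaa probe set gave -0.65. Neu1, a sialidase, was lower in KO by 0.40, Gusb, beta-glucuronidase, by 0.25, Hexa, the alpha chain of hexosaminidase, by 0.22, and Man2b1, an alpha-mannosidase, by 0.12. Man2b1 did not pass without WT replicate 1 (-0.12), WT replicate 2 (-0.12) or KO replicate 2 (-0.09), nor with its probe sets averaged (-0.02) or after median centring (-0.11). Glb1, beta-galactosidase and the basis of the senescence stain, read 10.78 to 10.79 in WT, 10.72 to 10.85 in Het and 10.73 to 10.83 in KO. The ranges overlapped in each comparison, and the line means of 10.79, 10.78 and 10.79 differed by less than the spread between arrays.

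All 4 sulfatases, which strip sulfate from glycosaminoglycans and sulfatides, were lower in KO, with a median of -0.51. Arsb, which acts on dermatan and chondroitin sulfate, read 11.29, 11.30 and 11.35 in WT, 10.99, 11.06 and 11.05 in Het and 10.78, 10.82 and 10.70 in KO. Again the 3 lines were ordered without overlap, with KO 1.46-fold below WT (-0.55, SE 0.043, adjusted p = 1.0e-06, limma). Arsa, which acts on sulfatide, was lower by 0.53 and Sgsh, the heparan sulfamidase, by 0.49. For Sgsh a dimmer probe set above the cut gave -0.18 and did not pass. Galns, the galactosamine-6-sulfatase, was lower by 0.27.

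All 5 lipid enzymes and lumenal lipid proteins were lower in KO, with a median of -0.31. Lipa, the acid lipase that frees cholesterol from its esters, read 11.51, 11.50 and 11.45 in WT, 10.99, 11.18 and 11.20 in Het and 11.04, 11.04 and 11.03 in KO. WT stood apart from both other lines, which overlapped. The KO difference was -0.45 (SE 0.054, adjusted p = 3.5e-05, limma). Ppt1, a palmitoyl-protein thioesterase, was lower by 0.40 and Psap, the precursor of the saposins that help sphingolipid hydrolases, by 0.31. Asah1, acid ceramidase, and Npc2, a soluble cholesterol carrier, were lower by 0.12 and 0.10. Asah1 did not pass without WT replicate 3 (-0.12) or KO replicate 2 (-0.10), and Npc2 did not pass when Het replicate 2, any 1 WT replicate, or KO replicate 1 or 2 was left out (-0.11 to -0.08). Counting every alternative setting, Npc2 passed in 7 and did not pass in 11.

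Among the 4 membrane proteins, 3 were lower in KO and Lamp1 did not pass, with a median of -0.25. Npc1, which exports cholesterol from the lysosome, read 9.68, 9.67 and 9.69 in WT, 9.45, 9.40 and 9.38 in Het and 9.44, 9.19 and 9.32 in KO. Every WT array was above every Het and KO array, and the latter overlapped (KO minus WT -0.36, SE 0.057, adjusted p = 2.7e-04, limma). Mcoln1, the calcium channel TRPML1, was lower by 0.25. Lamp2 was lower by 0.26, but its other probe sets gave -0.10, -0.13 and -0.01, and the mean over its probe sets did not pass (-0.13). Lamp1, the abundant LAMP family member, read 13.84, 13.84 and 13.86 in WT and 13.84, 13.89 and 13.86 in KO, values that overlapped, with a difference of 0.01 (adjusted p = 0.75, limma).

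Tfeb itself read 9.48, 9.48 and 9.45 in WT, 9.27, 9.43 and 9.45 in Het and 9.21, 9.20 and 9.26 in KO. All KO arrays lay below the rest, and KO was 1.19-fold below WT (-0.25, SE 0.049, adjusted p = 0.0014, limma). The Het difference of -0.09 did not pass (adjusted p = 0.18, limma). Differences between KO and WT were set beside the E-box of the promoter windows. Lysosomal genes with CACGTG had a median of -0.28, with 8 of 11 lower. Those with a promoter but no CACGTG had a median of -0.31, with 12 of 13 lower. The 5 without a promoter in the table had a median of -0.27, with 4 lower and 1 higher.

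Of the 10 autophagy genes 7 did not pass between KO and WT, 5 differences lay below 0 and 5 above, and the 3 that passed, Wipi1, Gabarapl1 and Sqstm1, were higher. Among the genes that start the vesicle, Wipi1, a phosphoinositide-binding protein of the growing membrane, read 11.42, 11.41 and 11.36 in WT, 11.47, 11.47 and 11.46 in Het and 11.68, 11.55 and 11.63 in KO. The KO arrays were above all others, by 0.22 over WT (SE 0.042, adjusted p = 8.9e-04, limma), and its 6 probe sets gave differences of 0.09 to 0.36. Ulk1, the kinase that starts autophagy, differed by 0.11 between KO and WT and Becn1, the core of the lipid kinase complex, by 0.0047, neither past the threshold. For Becn1, 2 dimmer probe sets above the cut gave 0.39 and 0.24, both higher, and the mean of its probe sets was higher as well (0.21). The conjugation genes Atg5 and Atg7 passed in neither direction on the probe sets used, but a dimmer probe set of each was lower in KO (-0.24 for both). Atg7, an E1-like enzyme, read 8.67, 8.57 and 8.59 in WT, 8.54, 8.59 and 8.68 in Het and 8.59, 8.55 and 8.53 in KO, and all ranges overlapped (KO minus WT -0.05, adjusted p = 0.38, limma).

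In the Atg8 family, whose lipid-bound members coat autophagosomes, Gabarapl1 stood out. It read 11.88, 11.93 and 11.91 in WT, 11.74, 11.85 and 11.87 in Het and 12.26, 12.29 and 12.31 in KO. The KO arrays lay above all the rest, while every Het array was below every WT array. KO exceeded WT 1.30-fold (0.38, SE 0.043, adjusted p = 2.4e-05, limma), and a second probe set gave 0.52. Map1lc3a, Map1lc3b and Gabarap had KO differences of -0.03, -0.02 and -0.06, none past the threshold, though another Map1lc3b probe set was higher (0.18). Sqstm1, the cargo receptor p62, which binds ubiquitin and Atg8 proteins, read 12.79, 12.88 and 12.81 in WT, 12.55, 12.55 and 12.70 in Het and 13.00, 13.00 and 12.99 in KO. Its KO arrays were the highest and its Het arrays the lowest, without overlap. KO was 1.12-fold above WT (0.17, SE 0.048, adjusted p = 0.011, limma).

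**Figure D2:**
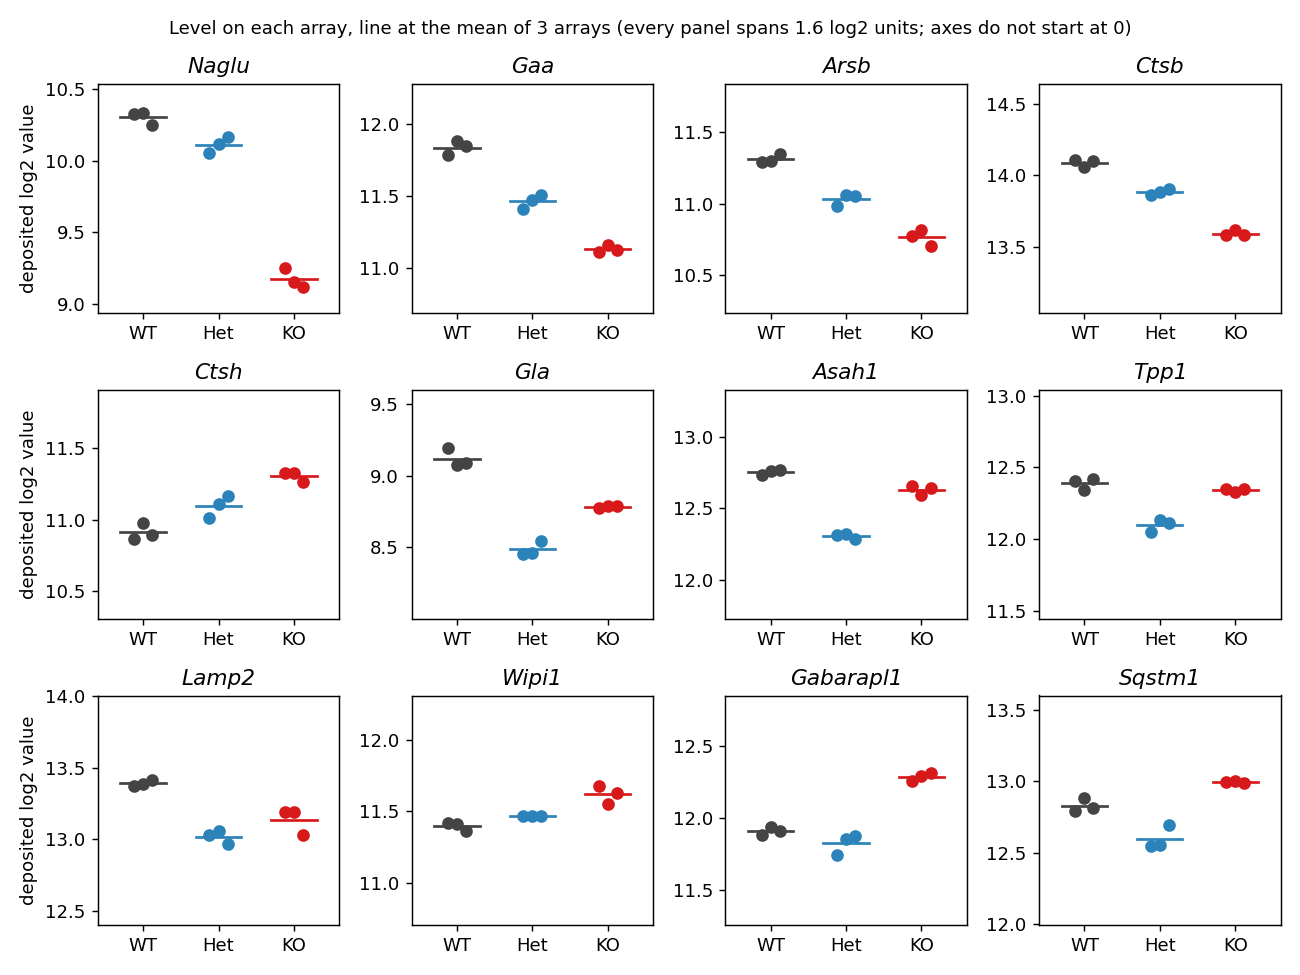
The deposited log2 value of each of the 9 arrays is plotted for selected genes, with the mean of each line (3 arrays a line). Naglu and Gaa step down from WT through Het to KO, Gla and Asah1 are lowest in Het, and Gabarapl1 and Sqstm1 are highest in KO.

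In the Het line, with 1 intact Oga allele, lysosomal RNAs were also lower than in WT, by smaller amounts for most and larger for some. Between KO and Het directly, 11 of the 29 lysosomal genes were lower in KO, 6 were higher and 12 did not pass. Of the 40 genes 25 were lower and 2 higher at an adjusted p below 0.05, and 13 did not pass, against 34.4% of all genes tested past the threshold, 21% lower and 13.4% higher. None passed 2-fold by limma (0 also at an unadjusted p below 0.05), where 0.201% of all genes fell and 0.054% rose. At 1.5-fold only Gla was lower, where 1.28% of all genes were lower and 0.54% higher. The median was -0.17 over the 40 genes, -0.21 over the lysosomal genes and -0.01 over all genes. This comparison and that of KO with WT share the WT arrays, so their values stand side by side and are not evidence for each other. Of the 29 lysosomal genes 22 were lower and 1, Ctsh, was higher. By role, 7 of 8 proteases, 6 of 8 glycosidases, 2 of 4 sulfatases, 4 of 5 lipid genes and 3 of 4 membrane genes were lower. In the same line 16 of 20 macrophage markers were lower, with a median of -0.35. Cd68, a macrophage lysosomal membrane protein, had means of 11.52, 10.75 and 8.89 in WT, Het and KO, and Lyz2, lysozyme, 13.77, 13.53 and 11.88; their part in the lysosomal values was not tested. RNA integrity, read as the actin control's 3′ value minus its 5′ value, came to 0.07 ± 0.011 for WT, 0.11 ± 0.015 for Het and 0.07 ± 0.019 for KO arrays (SD, n = 3), and the GAPDH control gave -0.08 ± 0.0097, -0.0020 ± 0.0059 and -0.07 ± 0.032. On actin and on GAPDH alike the Het arrays lay above those of the other lines without overlap, and the part of RNA integrity in the Het values was not tested.

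Some genes read lowest in Het, not in KO. Gla, the alpha-galactosidase A that removes terminal galactose from glycolipids, read 9.19, 9.07 and 9.09 in WT, 8.45, 8.46 and 8.55 in Het and 8.78, 8.79 and 8.79 in KO. The lines did not overlap, and the Het arrays lay below the KO arrays. Het was 1.55-fold below WT (-0.63, SE 0.044, adjusted p = 3.2e-06, limma) and KO 0.30 above Het (adjusted p = 2.0e-04, limma). The order rested on this probe set: a dimmer one gave -0.49 for Het and -0.55 for KO against WT, and KO and Het did not differ past the threshold there (-0.07). Asah1, with 1 probe set, was also lowest in Het, at 12.73, 12.76 and 12.77 in WT, 12.31, 12.32 and 12.28 in Het and 12.66, 12.60 and 12.64 in KO. Het was 1.36-fold below WT (-0.45, adjusted p = 9.0e-06, limma), and KO was 0.33 above Het. Tpp1, a tripeptidyl peptidase, read 12.41, 12.34 and 12.42 in WT, 12.05, 12.13 and 12.11 in Het and 12.35, 12.33 and 12.35 in KO, so that KO and WT overlapped and Het was apart. Its Het difference was -0.29 (adjusted p = 2.9e-04, limma), and a second probe set gave -0.33. Lamp2, at 13.38, 13.39 and 13.42 in WT, 13.03, 13.06 and 12.97 in Het and 13.19, 13.19 and 13.03 in KO, was lower in Het by 0.38, and its other probe sets gave -0.20, -0.36 and -0.50. Its KO and Het arrays overlapped, and KO minus Het did not pass (0.12, adjusted p = 0.067, limma). On the other Lamp2 probe sets KO minus Het was 0.09, not past the threshold, and 0.22 and 0.49, both higher.

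Autophagy genes in Het showed no common direction, with 3 lower, 1 higher and 6 not past the threshold (median -0.04). Becn1 read 11.21, 11.17 and 11.13 in WT, 10.87, 10.90 and 11.01 in Het and 11.23, 11.15 and 11.13 in KO. Only the Het arrays stood apart, at -0.24 against WT (adjusted p = 0.0028, limma), but its mean over probe sets did not pass (-0.07). Sqstm1 was lower by 0.23 and Map1lc3b, the usual marker of autophagosomes, by 0.11, whereas Map1lc3a was higher by 0.17. Other Map1lc3b probe sets above the cut gave -0.25 and -0.18 in Het, both lower. Several Het calls changed when 1 array was left out, often any of several. Ctsh (0.18) did not pass without WT replicate 1 or 3 or Het replicate 2 or 3 (0.15 to 0.18), and Ctsl (-0.11) passed only when Het replicate 3 or a KO replicate was the one left out. The dimmer Ctsh probe set was higher in Het (0.29). Ctsz (-0.15) did not pass without WT replicate 2 or when Het replicate 1 or 2 was left out (-0.14 to -0.11), nor Map1lc3b without WT replicate 2 or 3 or Het replicate 2 (-0.11 to -0.10). Atg5 (0.11) became higher without Het replicate 1 (0.14).

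Set directly against each other, KO and Het differed both ways, in shares of the 40 genes near those of all genes. Of the 40 genes 14 were lower and 11 higher in KO (35% and 27.5%). Of all genes tested, 52.3% were past the threshold, 28.6% lower and 23.7% higher. The median was -0.03 over the 40 genes and -0.02 over all genes tested. None passed 2-fold by limma (0 also at an unadjusted p below 0.05), where 1.37% of all genes fell and 0.625% rose. At 1.5-fold only Naglu was lower, where 4.3% of all genes were lower and 2.61% higher. On the probe sets used, the 4 sulfatases were all lower in KO (median -0.30), as were Naglu, 1.91-fold (-0.94, adjusted p = 6.1e-08, limma), Gaa by 0.33 and Ctsb by 0.29. Dimmer probe sets of Sgsh (-0.15) and Arsb (-0.18) did not pass. Higher in KO than in Het were Gla, Asah1, Tpp1, Ctsl, Ctsh and Lamp1 among the lysosomal genes. For Gla and Ctsh this rested on the probe set used, as dimmer ones gave -0.07 and 0.04, neither past the threshold. Of the autophagy genes, Gabarapl1 (0.47, 1.38-fold), Sqstm1 (0.40, 1.32-fold), Becn1 (0.25), Wipi1 (0.15) and Map1lc3b (0.10) were higher, and Map1lc3a (-0.20) and Atg5 (-0.14) lower. All 20 macrophage markers were lower in KO than in Het, with a median of -1.40, and 7 of 8 skeletal muscle markers were higher (median 0.57). Their part here was not tested. Some of these calls changed when 1 array was left out. Tfeb (-0.16) did not pass without Het replicate 2 or 3 or KO replicate 1 or 2 (-0.15 to -0.13), nor Lamp1 (0.11) without Het replicate 2 or KO replicate 2 (0.10 to 0.11). Atg5 did not pass without Het replicate 2 or 3 or KO replicate 2 (-0.14 to -0.11). Ctsd (-0.10) did not pass when any array but Het replicate 1 or KO replicate 2 was left out, nor Map1lc3b when any but Het replicate 1 was. Other Map1lc3b probe sets above the cut gave 0.21 and 0.36 for KO minus Het, both higher. Lamp2 became higher without KO replicate 3 (0.17), and Lipa and Npc1 became lower without Het replicate 1 (-0.16) and KO replicate 1 (-0.15).

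The rest of the pathway was read from 5 further lists, to be set against the shares of all genes given above (31.5% lower and 21.6% higher in KO, 21% and 13.4% in Het). Of 20 other hydrolases and cofactors measured, 13 were lower and 2 higher in KO against WT (65% and 10%, median -0.26), and 2 fell. The Het line had 11 lower and 2 higher than WT (55% and 10%, median -0.21). Ctss, a cathepsin of antigen-presenting cells, averaged 12.04, 11.70 and 10.65 on the WT, Het and KO arrays and fell 2.62-fold in KO (-1.39, SE 0.039, adjusted p = 3.5e-10, limma). Lgmn, an asparaginyl endopeptidase, had means of 12.86, 12.42 and 11.86 and fell 2.001-fold (-1.001, SE 0.051, adjusted p = 3.3e-08, limma), and lay under 2-fold without WT replicate 2 (-0.96), WT replicate 3 (-0.998), KO replicate 1 (-0.99) or KO replicate 3 (-0.98), and after median centring (-0.99). Both are strongly expressed by macrophages, and their relation to the macrophage markers was not tested. Of 16 other membrane proteins and sorting receptors 12 were lower in KO and none higher by limma (0 also at an unadjusted p below 0.05), with a median of -0.18. As many, 12, were lower in Het (75% in each line), with a median of -0.22. Of 15 subunits of the V-ATPase, the pump that acidifies the lysosome, 4 were lower and 2 higher in KO (median -0.04), 26.7% and 13.3%, both under the shares of all genes. In Het 7 were lower (46.7%, median -0.13).

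Of 37 further autophagy genes, 10 were lower and 6 higher in KO (27% and 16.2%, median -0.06), again under the shares of all genes, while 19 were lower and 3 higher in Het (51.4% and 8.11%, median -0.14). Bnip3, a mitophagy receptor induced by hypoxia, had means of 12.54, 12.31 and 11.38 in WT, Het and KO and fell 2.24-fold in KO (-1.17, SE 0.044, adjusted p = 3.2e-09, limma). Of 21 relatives of TFEB and nutrient-sensing genes, 7 were lower and 2 higher in KO (33.3% and 9.52%, median -0.06), close to all genes for the lower ones.

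**Figure D3:**
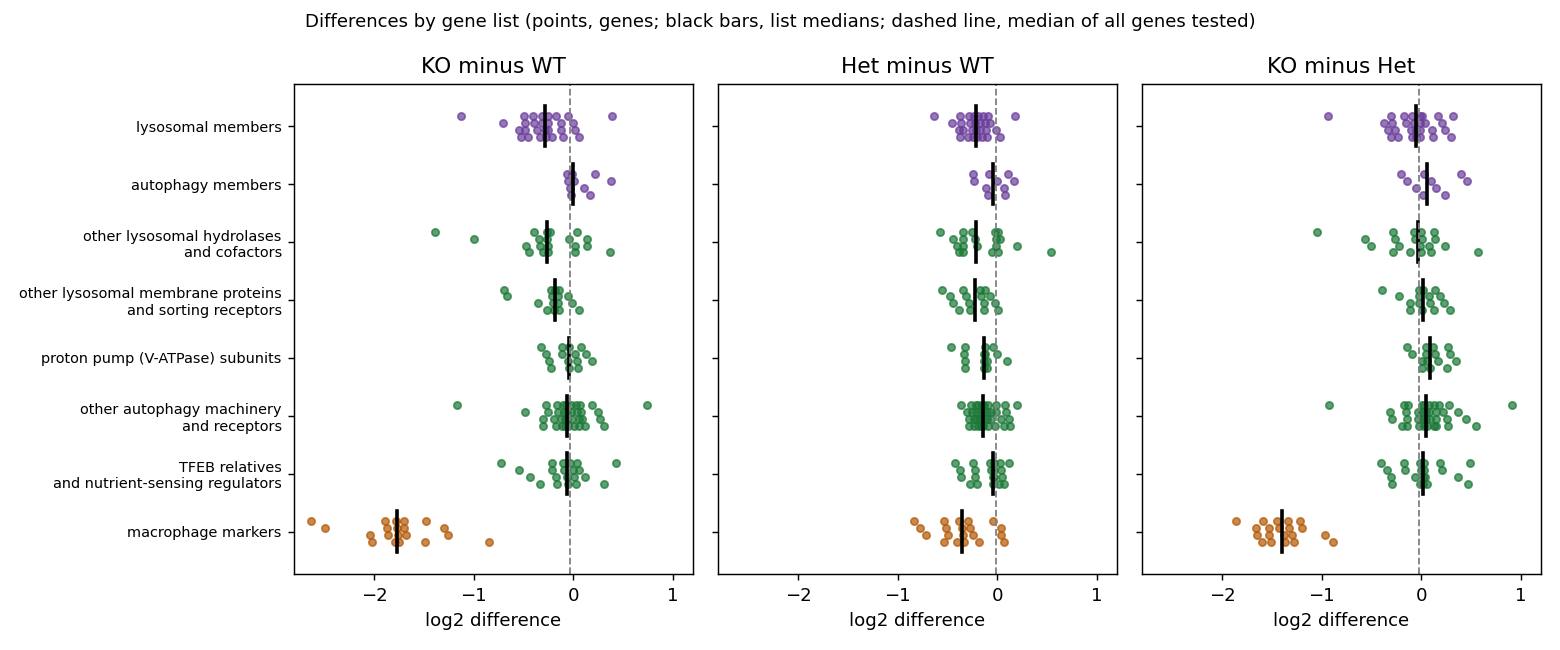
The log2 difference of each gene is plotted as a point for the lysosomal and autophagy genes, the 5 other pathway lists and the macrophage markers, in the 3 comparisons, with black bars at list medians and a dashed line at the median of all genes tested. In KO minus WT the macrophage markers have a median of -1.77, the lysosomal genes -0.28 and the autophagy genes -0.0055.

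The choice of probe set was checked against all 97, with p-values adjusted over every probe set on the array. In KO against WT 40 were lower and 13 higher, and 3 fell: that of Naglu and 2 of Ctsb. Over all 45037 probe sets, of which a larger share is dim, 14.8% were lower, 14.2% higher and 1.21% fell. The 5 Ctsb probe sets gave -0.50, -0.58, -1.12, -1.20 and -0.37, all lower, so its size depended on the probe set. In Het against WT 41 were lower and 7 higher, and 1, a dim Ctsl probe set below the cut, fell (-1.16), against 10.9% lower, 10.1% higher and 0.151% fallen over all probe sets. Of 25 genes with several probe sets above the cut, none had both a lower and a higher one in KO against WT. In Het against WT 1 did, Lipa, with -0.36 on the probe set used and 0.16 on another.

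**Figure D4:**
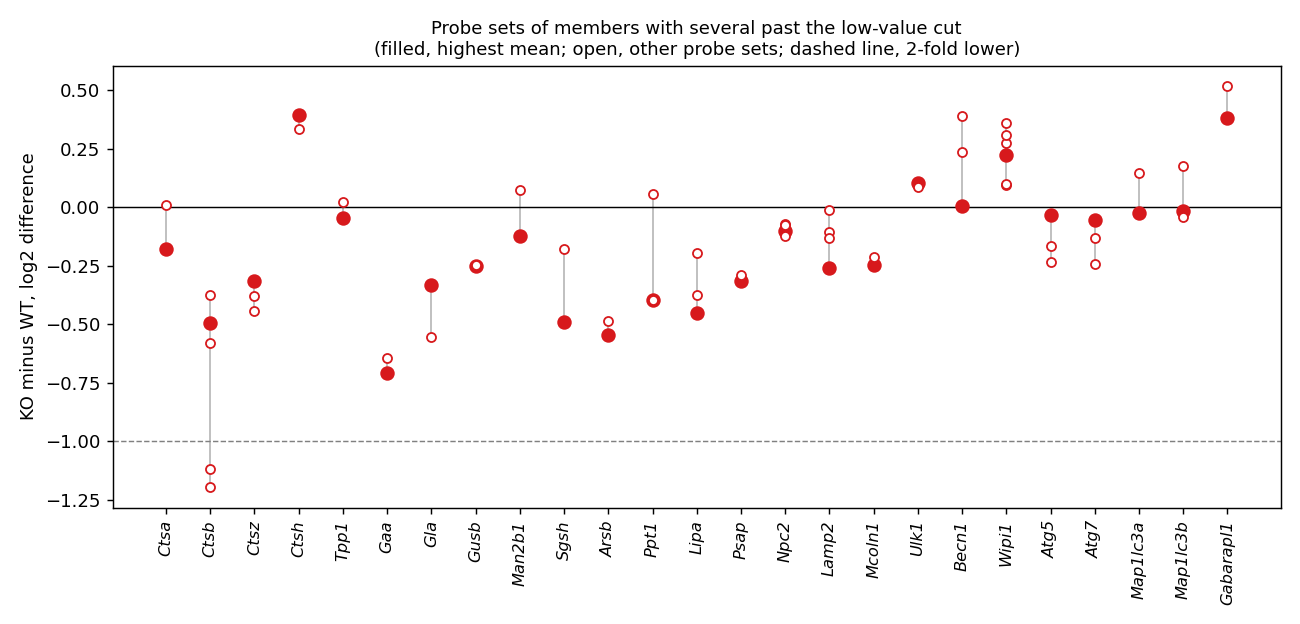
The KO minus WT log2 difference is plotted for every probe set above the low-value cut of the 25 genes that have several, with the probe set of highest mean filled, the others open and a dashed line at 2-fold lower. The 5 Ctsb probe sets spread from -1.20 to -0.37, all below 0.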

How the data were processed

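The authors deposited 1 normalized value per probe set and array for 9 arrays, read here as log2 from their range. Per the submitters' processing notes GCOS and Partek were used, with the normalization not given in the sources used here. Symbols came from the platform annotation; 64 control probe sets and probe sets with several or no symbols were left out. After leaving out the lowest 40% of probe sets by mean, the probe set with the highest mean stood for each gene. limma 3.58.1 (lmFit, eBayes; R 4.3.3) was fitted to all 9 arrays, with Benjamini-Hochberg adjustment over 12962 genes, and the scripts were tested on simulated data. Figures used matplotlib 3.10.9. Calls needed an adjusted p below 0.05, and 2-fold for "rose" or "fell". Values on every array were given for genes past 2-fold and for the largest KO minus WT difference in each role; those of Ctsk, Ctsh, Gaa, Gla, Glb1, Asah1, Tpp1, Lamp1, Lamp2 and Becn1 were added after their values were seen. From the other lists, up to 2 genes per direction past 2-fold were named. The members and lists were chosen with earlier results of these data known. Arrays have no read depth, and their number limits the precision. Replicate numbers did not pair the arrays: deviations from line means correlated at -0.176 to 0.213 for equal numbers and -0.25 to 0.215 for unequal ones. Other groupings of the arrays across lines were not tested. Alternatives were other probe set rules, filters, scalings and fits, and leaving out each array; counts for the lysosomal and autophagy genes apart were added to these after the data were seen.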

Additional observations from a re-analysis of the deposited data

How the results depend on the processing

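Among differences of the 40 genes past the threshold under the main or the alternative setting, direction changed only for Lipa (0.16) and Atg5 (-0.21) in Het against WT, both without probe sets ending in _x_at or _s_at. With a 1.5-fold minimum, 2 genes passed in KO against WT, 1 in Het against WT and 1 in KO against Het. Genes higher in Het numbered 4 after quantile normalization, 1 after median centring and 1 to 3 when each array was left out. Genes lower in KO against Het numbered 9 after median centring. Of lysosomal genes, 2 were higher in KO against WT with a trended, robust variance; in Het, 2 were higher without _x_at and _s_at probe sets, 0 after median centring and 0 to 1 without single arrays. Autophagy genes lower in KO against WT numbered 2 with the mean of probe sets, 1 without _x_at and _s_at and 1 after quantile normalization. In Het, 5 autophagy genes were lower without _x_at and _s_at, and 3 were higher after quantile normalization or 1 to 2 without single arrays. In KO against Het, 0 autophagy genes were lower without _x_at and _s_at, 1 after median centring and 1 to 2 without single arrays, and 3 were higher after quantile normalization. The cause was not tested. With single arrays left out, genes past the threshold numbered 26 to 29 in KO against WT, 23 to 27 in Het against WT and 20 to 26 in KO against Het. With the replicate number as a block, they were 28, 26 and 23; Npc2 in KO against WT, Map1lc3b in both comparisons with Het, and Ctsd in KO against Het no longer passed. Signal near background limits the dim probe sets.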

Other observations

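Some genes of the other pathway lists differed between the lines by less than 2-fold; they were chosen after their values were seen. Rb1cc1, the scaffold of the ULK1 complex, read 10.56, 10.56 and 10.56 on the WT arrays, 10.45, 10.39 and 10.33 on the Het arrays and 11.34, 11.26 and 11.30 on the KO arrays. It was 1.67-fold higher in KO than in WT (0.74, adjusted p = 6.8e-08, limma). Gabarapl2, an Atg8 protein related to Gabarapl1, was higher in KO by 0.27 and lower in Het by 0.28, the order also seen for Sqstm1. Aga, which cleaves the asparagine-sugar bond of glycoproteins, was higher in KO by 0.37 and lower in Het by 0.20. Idua, the alpha-iduronidase, differed from all of these: it read 9.28, 9.20 and 9.25 in Het, above 8.61 to 8.77 in WT and 8.72 to 8.75 in KO. Het exceeded WT 1.46-fold (0.54, adjusted p = 1.2e-05, limma). Mitf, a relative of Tfeb, was lower in KO by 0.73 and in Het by 0.42. Of the V-ATPase, Atp6v1a, a catalytic subunit, was lower in Het by 0.47 (adjusted p = 5.2e-05, limma), with a KO difference of -0.12 that did not pass.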
